A study of Mus musculus with 8 samples.

Results

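Vesicle coats, adaptors and the small GTPases that recruit them were followed through LIN28A-bound RNA, poly(A) RNA and ribosome footprints of mouse embryonic stem cells. Members were chosen by gene symbol alone: the COPI subunits with Arcn1, the COPII subunits with Sec16 and the SAR1 GTPases, the clathrin chains, the subunits of the adaptor complexes AP-1 to AP-4, and ARF1 to ARF6. The rule found 53 genes among 16482 distinct symbols in the 3 deposited tables. They were 9 COPI, 13 COPII, 3 clathrin, 22 adaptor and 6 ARF genes. All 53 were in the poly(A) table, 45 were in the CLIP table of 7820 transcripts and 46 were in the footprint table of 7936 transcripts. The alpha chains of AP-2, Ap2a1 and Ap2a2, fell outside the symbol rule and were read with the regulators and partners of coats.

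All 8 libraries came from A3-1, an embryonic stem cell line, cultured in medium with 20% serum and LIF. CLIP-seq sequences the RNA that stays attached to an immunoprecipitated protein, and it was done on LIN28A with 3 antibodies: the monoclonals 35L33G and 2J3, and a polyclonal serum (1 library per antibody). Poly(A) RNA-seq covered cells 48 hours after siRNA against Lin28a (siLin28a), cells 48 hours after siRNA against luciferase (siLuc) and untreated cells, 1 library each. Ribosome profiling, which sequences the RNA fragments protected by ribosomes (footprints), covered siLin28a and siLuc cells, 1 library each. No allele or transgene is named in the labels, and no control immunoprecipitation was analysed here.

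COPII coats bud vesicles from the endoplasmic reticulum, COPI coats return material from the Golgi, and clathrin with its adaptors serves the trans-Golgi network, endosomes and the plasma membrane. Small GTPases start most of these coats: SAR1 recruits COPII, and ARF proteins recruit COPI and most adaptor complexes, whereas AP-2 binds phosphoinositides of the plasma membrane. The coat proteins are made on free ribosomes in the cytosol and then bind membranes, whereas the cargo receptors they collect are made at the endoplasmic reticulum. LIN28A, found in pluripotent cells, binds RNA; it is known for blocking let-7 maturation and also attaches to many mRNAs.

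The siRNA strands against Lin28a, a gene on chromosome 4, are shown because every siRNA comparison rests on them.
siLin28a, strand listed first in the labels: auguucuucccuuuuggcc
siLin28a, strand listed second in the labels: ggccaaaagggaagaacau

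Promoters were read for sequence that members share and the symbol rule did not use. RefSeq promoter sequences (GRCm38.p6, 250 bases before to 50 bases after each gene start) were at hand for 48 members. The motif TGACGTGG, the core of the unfolded protein response element, was present on either strand in 6 of the 48 (12.5%). It was present in 193 of 27025 genes with a promoter sequence (0.714%) and in 53 of the 4805 genes at 10 RPKM or more in untreated cells (1.1%). This motif was picked after the counts of several motifs had been seen. The related letters GCCACGTC, which overlap it when read on the opposite strand, were in 9 of 48 member promoters (18.8%), in 0.844% of all and in 1.73% of the genes at 10 RPKM or more. The shorter TGACGT and CCACGT, both contained in it, were in 17 members each (35.4%), against 8.37% and 9.4% of all and 15.2% and 14.7% of the genes at 10 RPKM or more. Median GC content was 60% in member promoters, 52.7% in all and 61.3% in those of the genes at 10 RPKM or more. The windows of the 5 expressed members with TGACGTGG follow, with the match in capitals, each read along the gene's strand.
Sec23a, chr12:59011993-59012022, minus strand: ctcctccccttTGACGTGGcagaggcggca
Sec24d, chr3:123267459-123267488, plus strand: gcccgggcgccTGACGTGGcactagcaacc
Copb1, chr7:114254690-114254719, minus strand: cccgcccccttCCACGTCAgccaaggactt
Copb2, chr9:98563713-98563742, plus strand: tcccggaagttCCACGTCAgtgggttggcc
Arf1, chr11:59228228-59228257, minus strand: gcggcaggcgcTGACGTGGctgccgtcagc
Copb1 and Copb2 carry the motif on the opposite strand, so its reverse complement is in capitals. The sixth, Sec16b, was almost unexpressed. A match in these letters is a description of the sequence and was not tested as a binding site.

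CLIP libraries held between 7698479 and 8027670 exon counts, poly(A) libraries between 7475174 and 9605641, and footprint libraries 5980673 (siLin28a) and 7570209 (siLuc). Lin28a mRNA stood at 118 CPM (counts scaled to a common library total) in siLin28a cells, 354 CPM in siLuc cells and 465 CPM in untreated cells, so 33.4% of the siLuc level was left. Its footprints stood at 30.4 CPM in siLin28a cells and 119 CPM in siLuc cells, which left 25.7%. In untreated cells the 9 pluripotency markers ranged from 45.9 to 874 RPKM. Of 6 fibroblast markers 4 were in the table, with Col1a1 at 0.37 RPKM and Col1a2 at 0.15 RPKM but Vim at 83.5 RPKM. Of 7 markers of early lineages 5 were under 1 RPKM, the exceptions being Otx2 at 33.9 and Tubb3 at 24.4 RPKM. Summed over each list, pluripotency markers stood at 3441 RPKM in siLin28a, 2937 in siLuc and 2699 in untreated cells, fibroblast markers at 164, 157 and 97.9 RPKM, and early lineage markers at 81.2, 57.5 and 59.2 RPKM in the same order. Most of the fibroblast sum was Vim, at 158, 143 and 83.5 RPKM, whereas Thy1 stood at 6.12 RPKM in siLin28a, 13.4 in siLuc and 13.9 in untreated cells. Most of the early lineage difference between siRNAs was Otx2, at 50.4 RPKM in siLin28a and 30.6 in siLuc cells. The part of these markers in the siRNA comparisons was not tested.

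Coat genes were well expressed in untreated cells. On the deposited RPKM scale, which divides counts by transcript length and library size, the members' median was 36.1, against 5.70 over all 16456 transcripts. Clathrin led, with Clta (light chain a) at 300.4 RPKM, Cltc (heavy chain) at 227 and Cltb (light chain b) at 69.7. Next came Copz1, the small zeta subunit of COPI, at 164 RPKM, Sec13, an outer-shell subunit of COPII, at 114, and Copa, the alpha subunit of COPI, at 110.5. Class medians were 227 for clathrin, 73.2 for ARF, 67.6 for COPI, 36.1 for COPII and 13.4 for the adaptors. These are single libraries, so the order of neighbours has no replicate spread behind it. The levels of Arf1, Arcn1, Ap2m1, Ap3m1 and Ap3s1 are uncertain, since their poly(A) tallies were higher in another table.

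Several paralog pairs were unequal in level. Copz1 stood at 164 RPKM and Copz2 at 4.07. Copg (now Copg1) stood at 67.6 and Copg2 at 30.3. Among COPII genes Sec23b stood at 73.9 RPKM and Sec23a at 27.6, and of the cargo-binding Sec24 subunits Sec24c led at 52.4, with Sec24d at 16.3, Sec24b at 14.6 and Sec24a at 11.7. Sec31a stood at 77.3 RPKM, whereas Sec31b was at 0.61. Sec16b was listed at 0 in siLin28a and siLuc cells and stood at 0.14 RPKM in untreated cells. Arf5, Arf4 and Arf1 stood at 94.6, 89.9 and 87.2 RPKM. Relative to the median transcript, their poly(A) tallies in the CLIP table were 0.92, 1.03 and 1.65 times the untreated ones, so the level of Arf1 is uncertain. The neuronal-type AP-3 subunits Ap3b2 and Ap3m2 stood at 7.71 and 4.86 RPKM, beside their ubiquitous paralogs Ap3b1 at 39.5 and Ap3m1 at 4.61. The AP-4 genes Ap4s1, Ap4b1, Ap4e1 and Ap4m1 stood at 6.50, 8.23, 8.88 and 16.04 RPKM. In bulk RNA, fewer cells of a type and less RNA per cell cannot be told apart.

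The CLIP comparison asks which coat transcripts were over- or under-represented among LIN28A-bound RNA relative to untreated poly(A) RNA. Most were under-represented: 25 of 45 measured members were depleted, 5 were enriched and 15 did not pass the test. Over all 7820 transcripts 33.3% were depleted and 34.6% enriched. The members' median log2 enrichment was −0.55, against −0.03 over all transcripts. The enriched members were the GTPases Sar1a and Sar1b, the light chain Clta, the COPI delta subunit Arcn1 and the COPII scaffold Sec16a. Of the 21 large adaptins and large coat subunits measured, 13 were depleted and 0 enriched. Calls are edgeR quasi-likelihood calls at an adjusted p of 0.05, with the Benjamini-Hochberg adjustment made over all transcripts. CPM values of the CLIP comparison are also scaled with TMM factors, so an untreated CPM is lower here than in the siRNA comparisons. The spread behind them is that of 3 antibody libraries not stated to come from separate cultures, which may be technical, and the 1 untreated library is assumed to vary like them. Scaled by total counts instead of TMM, the median of all transcripts moved to −0.40 and the members' counts to 3 enriched and 33 depleted, with Sec16a and Arcn1 no longer called. The share of all transcripts called with that scaling is not given here. The 8 members absent from the CLIP table were Ap1s2, Ap1s3, Ap3m2, Ap3s1, Ap4s1, Copz2, Sec16b and Sec31b.

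**Figure D1:**
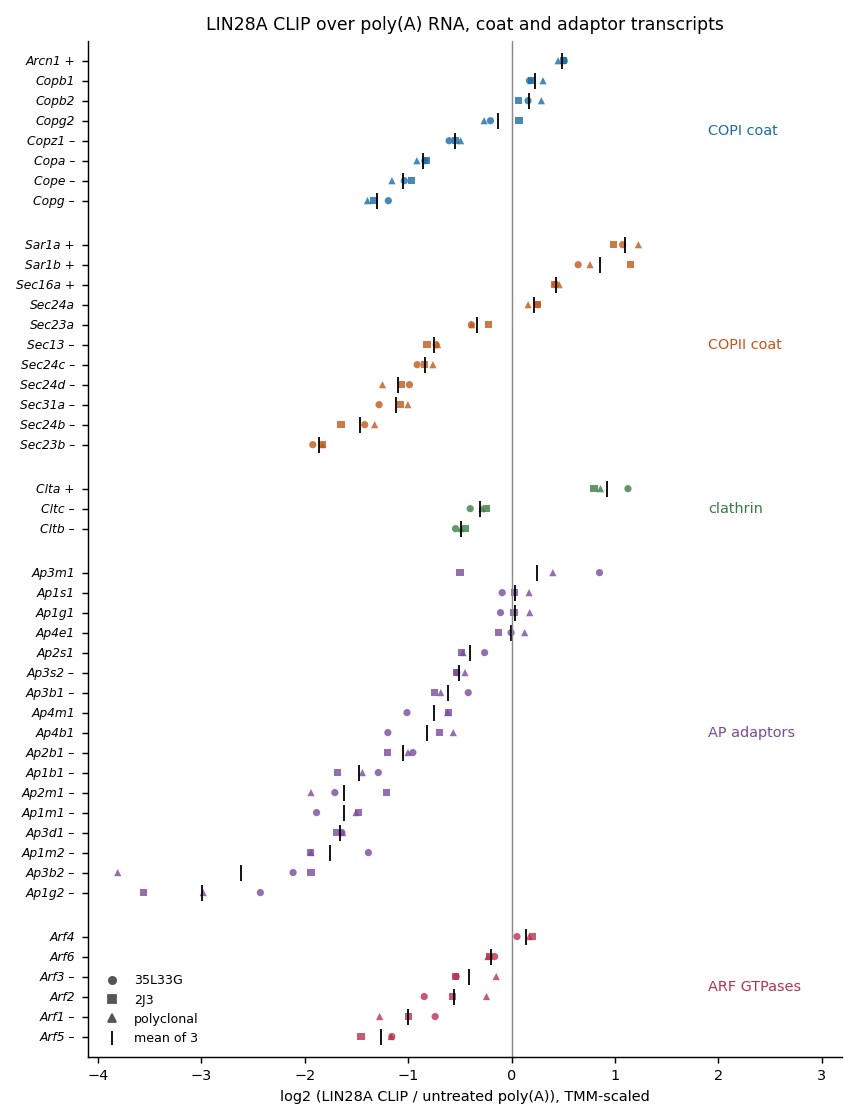
Log2 ratio of LIN28A CLIP over untreated poly(A) RNA (x axis) for the 45 measured members (y axis), grouped by class. Symbols are the 3 antibodies and the bar is their mean; + and – after a name mark members called enriched or depleted. Sar1a lies farthest right at 1.10 and Ap1g2 farthest left at −2.99.

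COPII held both enriched and depleted members. Sar1a (mm9 chromosome 10, 61143069 to 61156045), the GTPase that starts the coat, had 275, 258 and 305 CPM with the antibodies 35L33G, 2J3 and polyclonal, against 130 CPM in untreated poly(A) RNA. All 3 CLIP libraries lay above the untreated level, and the mean log2 enrichment was 1.10 ± 0.12 (SD, n = 3; edgeR adjusted p = 1.32e-07). Its paralog Sar1b had 72.0, 103 and 78.0 CPM in CLIP, against 46.1 CPM untreated, a log2 enrichment of 0.85 ± 0.27 (edgeR adjusted p = 0.00163). Sec16a, which organises the exit sites where COPII forms, had 0.43 ± 0.02 (edgeR adjusted p = 5.01e-04).

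Of the 8 measured COPII coat subunits, 6 were depleted and Sec23a and Sec24a did not pass. Sec23b (mm9 chromosome 2, 144382013 to 144416479), an inner-layer subunit that activates SAR1 hydrolysis, had 46.1, 49.1 and 49.2 CPM in CLIP, against 175 CPM untreated. The CLIP libraries lay close together and far below the untreated level, at a log2 enrichment of −1.86 ± 0.05 (edgeR adjusted p = 3.47e-09), or 3.63-fold lower. Sec24b, Sec31a, Sec24d, Sec24c and Sec13 were also depleted, with means between −1.46 (Sec24b) and −0.75 (Sec13).

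Paralogs of the inner layer differed in value. Sec23a, at −0.33 ± 0.09, did not pass the test, and neither did Sec24a, at 0.22 ± 0.05, which with total-count scaling stood at −0.15. The difference between paralogs was not tested. COPII as a class had 3 enriched and 6 depleted of 11 measured.

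COPI had 1 enriched and 4 depleted of 8 measured. Arcn1 (mm9 chromosome 9, 44550228 to 44575891), the delta subunit related to the medium chains of adaptors, had 130, 130 and 125 CPM in CLIP, against 91.6 CPM untreated. Its log2 enrichment was 0.49 ± 0.03 (edgeR adjusted p = 0.00637). Its poly(A) tally differed between the tables: against the CLIP table's poly(A) counts, whose condition is not named, it was 0.16 (edgeR adjusted p = 0.334), and with total-count scaling 0.12, so its call is uncertain.

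Copg (mm9 chromosome 6, 87837934 to 87863588), the gamma subunit that binds ARF and cargo tails, was the lowest COPI member. It had 102, 92.7 and 88.7 CPM in CLIP, against 233 CPM untreated, and −1.30 ± 0.10 on the log2 scale (edgeR adjusted p = 3.17e-08). Its paralog Copg2, at −0.13 ± 0.18, did not pass. Cope (−1.05 ± 0.10), Copa (−0.86 ± 0.05) and Copz1 (−0.55 ± 0.06) were depleted, whereas Copb1 (0.22 ± 0.07) and Copb2 (0.17 ± 0.11) did not pass. Copb1 and Copb2 changed sign with total-count scaling, at −0.14 and −0.19. Copa overlaps Ncstn by 221 bases in mm9, Copg2 overlaps Mest by 47 and Copz1 overlaps Mir148b by 97. In the sources used here the strand setting of the counting is not given.

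The clathrin light chains lay on opposite sides. Clta (mm9 chromosome 4, 44025515 to 44045718) had 659, 525 and 548 CPM in CLIP, against 302 CPM untreated, a log2 enrichment of 0.93 ± 0.17 (edgeR adjusted p = 2.60e-07). Cltb (mm9 chromosome 13, 54694300 to 54712633) had 64.8, 69.2 and 67.2 CPM in CLIP, against 94.3 CPM untreated, at −0.49 ± 0.05 (edgeR adjusted p = 0.0202). With only transcripts of 200 or more untreated counts fitted, Cltb was no longer called, at −0.39 (edgeR adjusted p = 0.0642). The heavy chain Cltc, the most counted member, had 908, 1014 and 982 CPM in CLIP, against 1198 CPM untreated, a depletion of −0.31 ± 0.08 (edgeR adjusted p = 9.34e-04). With coding counts in CLIP against untreated exon counts, an unlike comparison, it was called enriched, at 0.28 (edgeR adjusted p = 0.00215).

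Adaptors had 0 enriched and 10 depleted of 17 measured. Ap1g2 (mm9 chromosome 14, 55717687 to 55725430), the gamma-2 adaptin of AP-1, had 4.54, 2.04 and 3.07 CPM in CLIP, against 24.8 CPM untreated. Its log2 enrichment of −2.99 ± 0.56 was the lowest of the 45 (edgeR adjusted p = 1.22e-04), from 33, 15 and 23 CLIP counts, and the gene overlaps Thtpa by 146 bases. Its paralog Ap1g1, the ubiquitous gamma-1 adaptin, stood at 0.03 ± 0.14 and did not pass. Ap1g1 overlaps Snord71 by 64 bases. The medium chains Ap1m2 and Ap1m1, which read tyrosine-based sorting signals, were depleted at −1.76 ± 0.32 and −1.62 ± 0.23, and the beta adaptins Ap1b1 and Ap2b1 at −1.47 ± 0.20 and −1.05 ± 0.13.

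In AP-3, which sorts cargo towards lysosome-related organelles, Ap3d1 had 59.7, 57.5 and 60.0 CPM in CLIP, against 186 CPM untreated. Its log2 enrichment was −1.66 ± 0.03 (edgeR adjusted p = 6.99e-09). Ap3b1 (−0.62 ± 0.17), Ap3b2 (−2.62 ± 1.03) and the small chain Ap3s2 (−0.50 ± 0.05) were also depleted; Ap3s2 lost its call in the fit of transcripts with 200 or more untreated counts, at −0.40 (edgeR adjusted p = 0.0649). The 3 antibodies disagreed most for Ap3b2 and for Ap3m1, which had 31.6, 12.4 and 23.1 CPM in CLIP, against 17.5 CPM untreated, and was not called. None of the 3 measured AP-4 genes passed the test. Ap2m1 was depleted at −1.62 ± 0.37 from 32, 46 and 28 CLIP counts, but its poly(A) tally was 9.99 times as high in the footprint table as in the poly(A) table, so its value is uncertain.

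ARF genes had 0 enriched and 3 depleted of 6 measured. Arf4, which acts at the Golgi and recycling endosomes, was the highest, with 163, 182 and 178 CPM in CLIP, against 158 CPM untreated. Its log2 value of 0.14 ± 0.08 did not pass (edgeR adjusted p = 0.318) and changed sign with total-count scaling, at −0.22. Arf5 (mm9 chromosome 6, 28373640 to 28376499) was the lowest, with 34.0, 27.6 and 33.8 CPM in CLIP, against 75.8 CPM untreated, at −1.26 ± 0.17 (edgeR adjusted p = 5.72e-05).

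Arf1, the main recruiter of COPI, was 2.01-fold lower in CLIP (SD of the log2 value 0.27, n = 3; edgeR adjusted p = 5.77e-05). Its poly(A) tally in the CLIP table, relative to the median transcript, was 1.65 times the untreated one. Arf3 was called at −0.41 ± 0.23 (edgeR adjusted p = 0.0253), a call that ended without 35L33G (−0.35, edgeR adjusted p = 0.0859), without 2J3 (−0.34, edgeR adjusted p = 0.0627) and with DESeq2. Arf6, which works at the plasma membrane, and Arf2 did not pass, at −0.20 ± 0.03 and −0.55 ± 0.30.

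Cargo receptors and lumenal chaperones of the same route had other values. Among 20 measured genes listed as membrane cargo receptors of COPI and COPII vesicles, 16 were enriched and 2 depleted, with a median log2 enrichment of 1.27. That list also holds the lumenal protein Mcfd2 (1.27 ± 0.08, enriched) and the fusion protein Sec22b (0.38 ± 0.26, not called). The p24 proteins Tmed5 and Tmed4 stood at 2.80 ± 0.25 and 2.66 ± 0.13, and the lectin Lman1 at 1.82 ± 0.08; the depleted receptors were Ergic1 (−0.82 ± 0.20) and Ergic3 (−0.56 ± 0.22). Of 22 chaperones of the endoplasmic reticulum 21 were enriched and 0 depleted, with a median of 1.94. Regulators and partners of coats, most of them cytosolic, had 11 enriched and 19 depleted among 43, and a median of −0.28. For tethers and retromer the counts were 5 enriched and 12 depleted among 28, and the median −0.39. In the regulator list the highest was Mia3, a membrane-spanning export factor at COPII exit sites, at 2.67 ± 0.05, and the AP-2 alpha chains Ap2a2 and Ap2a1 were depleted at −1.37 ± 0.04 and −0.89 ± 0.07. The lists were drawn up with earlier results of these data known, and differences between lists were not tested.

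**Figure D2:**
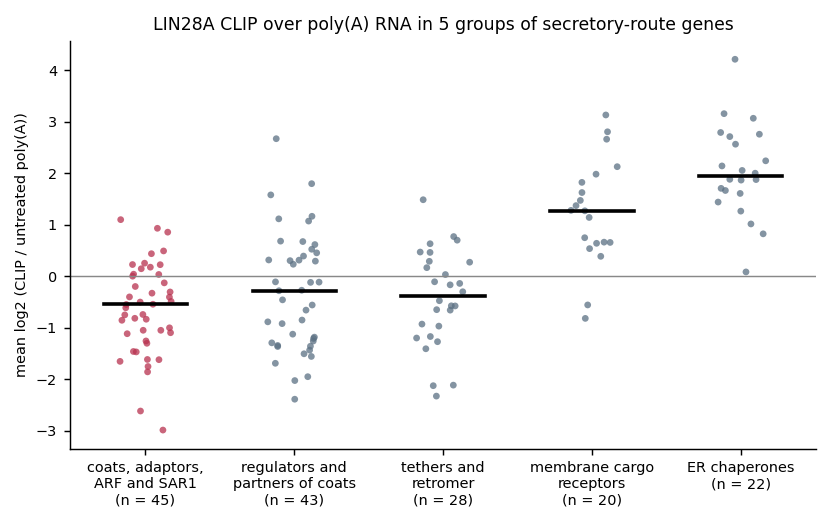
Mean log2 ratio of CLIP over untreated poly(A) RNA (y axis) for each gene (point) in the coat members and 4 lists of secretory-route genes (x axis), with the median as a bar. Medians are −0.55 for the 45 coat members, −0.28 for regulators and partners, −0.39 for tethers and retromer, 1.27 for membrane cargo receptors and 1.94 for chaperones.

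Where in the transcript the CLIP reads lay differed between members. For each of 43 members with 20 or more counts in every antibody, the coding share is the coding counts as a percentage of coding plus 3′ UTR counts. Its median was 73.0% in CLIP and 77.5% in that table's poly(A) column, against 69.7% and 73.3% over all 7635 transcripts with such counts. The ratio of 3′ UTR to coding counts was at least 2-fold higher in CLIP than in that poly(A) column for 12 members (27.9%; 27.2% of all transcripts) and at least 2-fold lower for 9 (20.9%; 18.5% of all). The poly(A) column is the authors' value with no replicate, so no test was made.

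Clta had coding shares of 28.7%, 30.5% and 29.6% in the 3 CLIP libraries, against 72.1% in the poly(A) column. The 3 antibodies lay within 2 percentage points of each other, and the log2 shift towards the 3′ UTR was 2.62 ± 0.06 (SD, n = 3). With coding counts in CLIP against untreated exon counts, an unlike comparison, Clta stood at −0.06 (edgeR adjusted p = 0.730) and was no longer enriched. Sec24a (33.9 ± 4.5% in CLIP against 76.6%), Sec24b (44.5 ± 11.8% against 79.2%), Arf6 (13.3%, 20.5% and 20.3% against 46.6%) and Copb2 (78.1 ± 5.1% against 95.6%) shifted the same way. Sar1a had nearly equal shares, 33.4 ± 4.0% in CLIP against 34.1%, so most of its counts in both assays lay in the 3′ UTR. With coding counts in CLIP against untreated exon counts, Sar1a stood at 0.28 and was not called (edgeR adjusted p = 0.163). That fit leaves out 3′ UTR counts in CLIP only, so it cannot show whether enrichment was absent from the coding region.

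Other members held more of their CLIP counts in the coding region. Arcn1 had 82.8 ± 3.0% in CLIP against 58.2% in the poly(A) column, Ap1m1 93.1 ± 2.5% against 71.0%, Arf5 92.8 ± 2.4% against 77.2%, and Cltb 82.4 ± 3.4% against 63.0%. The clathrin light chains thus shifted in opposite directions. With coding counts in CLIP, Copb1, Copb2, Copg2, Cltc and Ap1g1 joined the enriched members at 0.95, 0.59, 0.56, 0.28 and 0.44. The untreated counts stayed exon counts in that fit, so a high coding share by itself raises the value. Those 5 members had coding shares of 95.7%, 95.6%, 90.3%, 89.5% and 77.5% in the poly(A) column, against a median of 73.3% over all transcripts. Their calls therefore do not show coding-region enrichment. The share of all transcripts called in that fit is not given here.

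**Figure D3:**
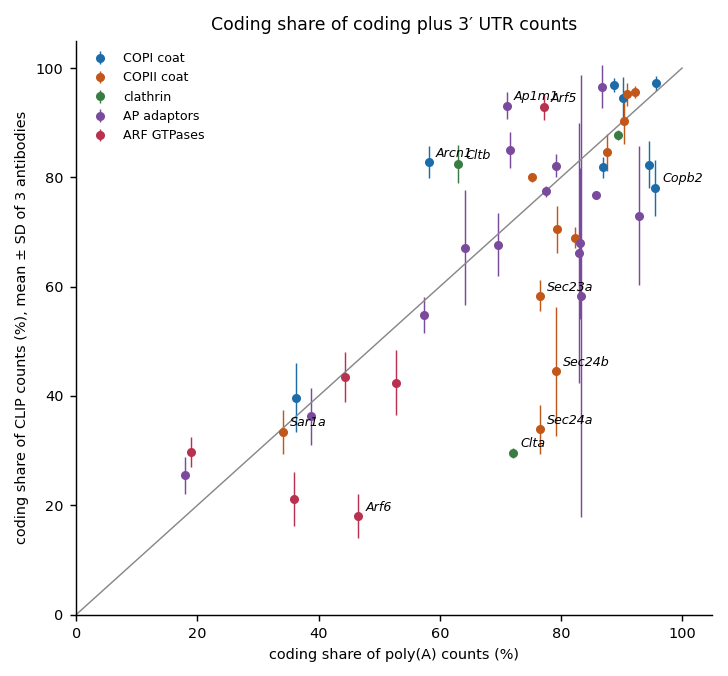
Coding share of coding plus 3′ UTR counts in LIN28A CLIP (y axis, mean ± SD of 3 antibodies, percent) against that of the table's poly(A) column (x axis, percent) for 43 members; the line marks equal shares. Clta, Sec24a, Sec24b and Arf6 lie well below the line, and Arcn1, Cltb, Ap1m1 and Arf5 above it.

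The mRNA comparison asks what siLin28a did to coat transcripts beside the control siRNA. Of 47 members with 200 or more counts in both libraries together, 3 (6.38%) were at least 1.5-fold higher in siLin28a than in siLuc cells. That share was near the 7.62% of all 8859 transcripts. At least 1.5-fold lower were 0 members and 4.50% of all transcripts. The members' median log2 change was 0.01, against −0.0018 over all transcripts. With the poly(A) counts that the footprint table gives for the same conditions, 2 of 46 members were higher (6.76% of 7791 transcripts) and 4 lower (4.92%), and Cope, at 0.58, was no longer among the higher. With 1 library per condition there is no replicate check and no p-value, and intervals cover counting error only. The other 6 members, Ap1s3, Ap3s1, Ap4s1, Copz2, Sec16b and Sec31b, had too few counts.

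The 3 higher members were the AP-1 subunits Ap1m2 and Ap1g2 and the COPI epsilon subunit Cope. Ap1m2 had 33.6 CPM in siLin28a cells, 19.8 CPM in siLuc cells and 30.7 CPM in untreated cells, a log2 change over siLuc of 0.76 (95% counting interval 0.48 to 1.04). The siLuc library is thus the low one, and over untreated cells Ap1m2 stood at only 0.13. Ap1g2 had 39.5 CPM in siLin28a, 25.7 in siLuc and 28.8 in untreated cells, a change of 0.62 (0.37 to 0.87). Cope had 122 CPM in siLin28a, 80.1 in siLuc and 86.8 in untreated cells, a change of 0.60 (0.46 to 0.75) in which siLin28a stands apart from both others.

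The lowest values were those of Arcn1, Sar1b and Arf4, none of them 1.5-fold in the poly(A) table. In the footprint table's poly(A) counts they were past 1.5-fold lower, at −0.63, −0.60 and −0.68, as was Ap3s2 at −0.61. Arcn1 had 110 CPM in siLin28a cells, 157 CPM in siLuc cells and 107 CPM in untreated cells, a log2 change over siLuc of −0.51 (−0.63 to −0.39) and over untreated cells of 0.05. Sar1b had 40.9 CPM in siLin28a, 55.7 in siLuc and 53.6 in untreated cells, at −0.44 (−0.64 to −0.24). Arf4 had 137 CPM in siLin28a, 183 in siLuc and 183 in untreated cells, at −0.42 (−0.53 to −0.31). The 5 members with the printed promoter windows ranged from −0.26 (Sec23a) to 0.45 (Sec24d).

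The control siRNA by itself was compared with no treatment; this comparison shares the siLuc library with the previous one. Of 47 members 0 were 1.5-fold higher in siLuc than in untreated cells (3.31% of 8743 transcripts were) and 2 were 1.5-fold lower (4.46%), with a median of −0.10 against −0.01 over all. Those were Ap1m2, at −0.63 (−0.91 to −0.34), and Arf5, with 57.7 CPM in siLuc and 88.3 CPM in untreated cells, at −0.61 (−0.78 to −0.45). Sec23b followed at −0.49 (−0.59 to −0.38). Arcn1 stood highest, at 0.55 (0.43 to 0.68), ahead of Ap4m1 (0.34) and Ap3m1 (0.33). Over untreated cells, siLin28a cells had 0 of 47 members 1.5-fold higher (7.43% of 9056 transcripts were) and 1 lower (5.07%), the AP-3 subunit Ap3b2 at −0.68.

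The footprint comparison sets ribosome-protected fragments of siLin28a cells beside those of siLuc cells. Of 40 members with enough footprint counts, 12 were at least 1.5-fold lower in siLin28a than in siLuc cells (26.9% of 6323 transcripts were) and 0 at least 1.5-fold higher (14.4%). The members' median log2 change was −0.33, against −0.21 over all. The lower share of members was thus near that of all transcripts. With TMM scaling, which puts the median of all at 0.01, the members' median was −0.10, with 1 higher (21.1% of all transcripts) and 8 lower (15.6%). Without TMM scaling, 9 of 17 large adaptins and large coat subunits were lower, and 0 of the 8 GTPases.

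Copb2, the beta-prime COPI subunit that binds dilysine retrieval signals, was lowest, at 19.2 footprint CPM in siLin28a cells, against 54.2 CPM in siLuc cells. Its log2 change was −1.49 (95% counting interval −1.79 to −1.19), from 115 and 410 counts. Ap2b1, the AP-2 beta adaptin that binds clathrin, stood at 146 CPM in siLin28a and 314 CPM in siLuc cells, at −1.10 (−1.22 to −0.99). Cltc stood at 727 CPM in siLin28a and 1489 CPM in siLuc cells, at −1.03 (−1.08 to −0.98), while its mRNA changed by −0.07. At the other end were 3 ARF genes: Arf5 with 183 CPM in siLin28a and 123 CPM in siLuc cells (0.57, 0.44 to 0.69), Arf1 with 616 and 485 CPM in the same order (0.34, 0.28 to 0.41), and Arf3 with 48.5 and 42.9 CPM (0.18, −0.05 to 0.40). Arf5 passed 1.5-fold only with TMM scaling, at 0.80.

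Ribosome density is the footprints of a transcript over its mRNA in the same table. After siLin28a it stood higher for the GTPases than for the large subunits. Of 46 members, 4 were at least 1.5-fold higher in siLin28a than in siLuc cells relative to the median transcript (18.6% of 7799 transcripts were), and 12 were at least 1.5-fold lower (17.0%). The members' median log2 change was −0.09, with the median transcript set to 0. Among the 8 ARF and SAR1 GTPases the median was 0.49, from −0.08 (Arf6) to 1.02 (Arf4), with 2 higher and 0 lower. Among 21 large adaptins and large coat subunits it was −0.53, with 0 higher and 10 lower, and the highest, Copg2 at 0.14, lay above Arf6 alone among the GTPases. Without centring, the median transcript stood at −0.22, and 2 members were higher (11.1% of all transcripts) and 16 lower (27.3%).

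Arf4 had 118 footprint CPM in siLin28a cells and 108 CPM in siLuc cells, on 72.8 and 117 mRNA CPM in the same order, a density change of 1.02 (95% counting interval 0.81 to 1.23). Its footprints changed by 0.13 and its mRNA in that table by −0.68 on the log2 scale. Sar1b had 91.0 footprint CPM in siLin28a and 81.2 CPM in siLuc cells, on 24.4 and 36.9 mRNA CPM, at 0.98 (0.67 to 1.28). The AP-3 small chain Ap3s2 followed at 0.65 (0.24 to 1.06) and its paralog Ap3s1 at 0.63 (0.14 to 1.12), whose poly(A) tallies disagreed between tables. With the poly(A) table's mRNA counts, 2 members were higher (19.1% of 7742 transcripts) and 10 lower (15.8%). Arf4 then stood at 0.77, Sar1b at 0.83, Ap3s2 at 0.32 and Ap3s1 at −0.12.

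The lowest density changes were in COPI and COPII. Copb2 had 19.2 footprint CPM in siLin28a and 54.2 CPM in siLuc cells, on 271 and 304 mRNA CPM, at −1.11 (−1.42 to −0.80). Copg had 60.0 footprint CPM in siLin28a and 123 CPM in siLuc cells, on 299 and 252 mRNA CPM, at −1.06 (−1.25 to −0.86). Sec23b had 62.5 footprint CPM in siLin28a and 123 CPM in siLuc cells, on 169 and 140 mRNA CPM, at −1.03 (−1.24 to −0.83).

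For Copg and Sec23b footprints were lower while mRNA was higher in siLin28a cells. Ap1g2 stood at −1.02 (−1.63 to −0.41) from few footprints, 41 in siLin28a and 73 in siLuc cells. The other 8 lower members were Ap2b1 (−0.94), Sec31a (−0.86), Ap1g1 (−0.76), Cltc (−0.76), Ap1b1 (−0.69), Sec24b (−0.67), Ap1m1 (−0.63) and Sec24d (−0.60). With the mRNA counts of the poly(A) table Sec24b stood at −0.56 and Sec24d at −0.51, short of 1.5-fold.

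Paralogs again stood apart in value: Copg2 was at 0.14 (−0.10 to 0.38) beside Copg, and Sec23a at −0.27 (−0.56 to 0.02) beside Sec23b. The COPI beta subunit Copb1, at −0.05 (−0.25 to 0.14), stood above the beta-prime subunit Copb2, which is not its paralog. These differences were not tested. The light chains Clta (0.13) and Cltb (0.28) stood above the heavy chain. In the other lists, 15 of 20 cargo receptors and 17 of 21 chaperones were 1.5-fold higher, with medians of 0.80 and 0.72. Regulators and partners had a median of −0.25 and tethers of −0.02.

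**Figure D4:**
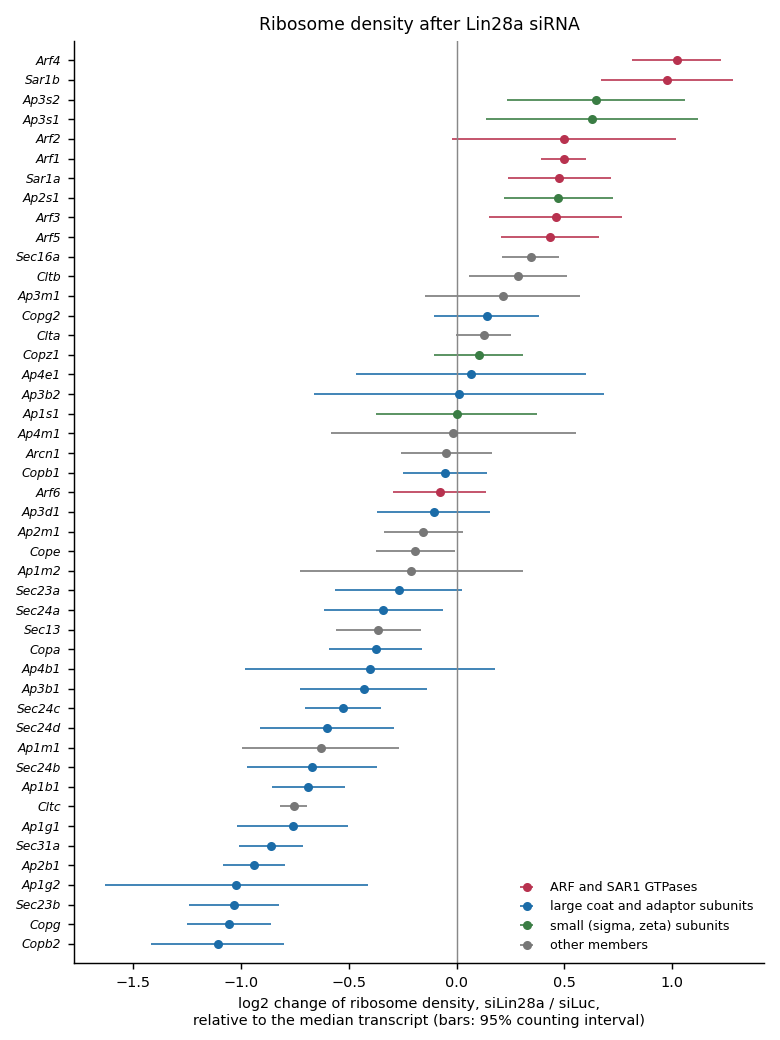
Log2 change of ribosome density in siLin28a over siLuc cells relative to the median transcript (x axis) for 46 members (y axis), with 95% counting intervals; colours mark the members' roles. The GTPases Arf4 at 1.02 and Sar1b at 0.98 stand highest, ahead of the small chains Ap3s2 and Ap3s1, and Arf6 is the one GTPase below 0. Of the 12 members at least 1.5-fold lower, down to −1.11 for Copb2, 10 are large subunits.

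Coding length moved with these changes. The 14 measured members shorter than 750 coding bases, which include all 8 GTPases, had a median density change of 0.47, against 0.29 for all 1169 transcripts of that length. From 750 to under 1500 bases the medians were −0.19 for 7 members and −0.02 for all transcripts. From 1500 to under 3000 bases they were −0.73 for 12 members and −0.20 for all, and from 3000 bases −0.40 for 12 members and −0.12 for all. Across 45 members the Spearman correlation of coding length with density change was −0.60, and without the GTPases it was −0.41 (37 members). Across 7111 transcripts it was −0.23. These correlations are descriptions over transcripts that share the same 4 libraries, and the part of length in the difference between GTPases and large subunits was not tested.

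**Figure D5:**
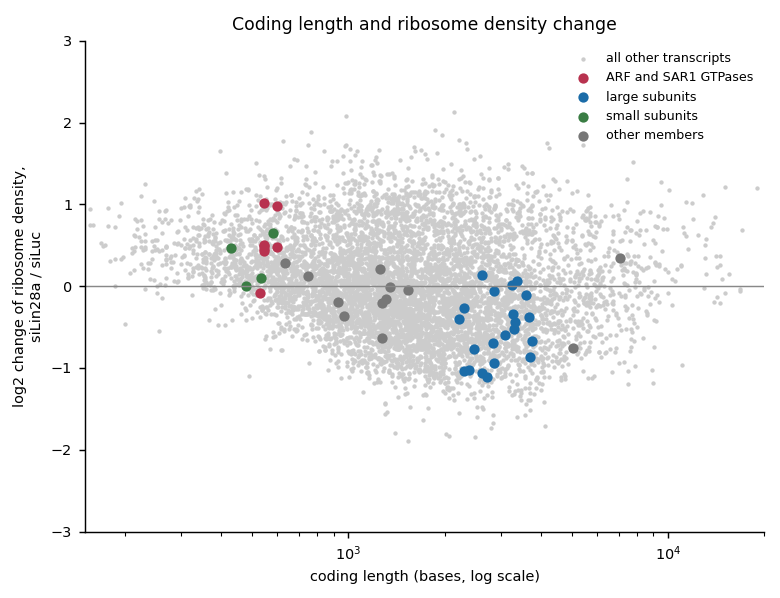
Log2 change of ribosome density in siLin28a over siLuc cells (y axis) against coding length in bases (x axis, log scale) for 45 members by role and for other transcripts in grey, 8 of which lie outside the axes. Members under 750 bases have a median of 0.47 and those of 1500 to under 3000 bases of −0.73.

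Density change also ran with CLIP. The 5 CLIP-enriched members had a median density change of 0.34, the 15 not called −0.02 and the 25 depleted −0.38. The same medians over all transcripts were 0.36, 0.02 and −0.32. Across the 45 members the Spearman correlation of CLIP enrichment with density change was 0.46, and across 7111 transcripts it was 0.48, from the same libraries. Copb2, not called in CLIP, was lowest in density change.

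In siLuc cells themselves the members' densities spread about as those of all transcripts. Relative to the median transcript, 16 of 46 had at least 1.5-fold higher ribosome density (30.0% of all transcripts did) and 13 at least 1.5-fold lower (29.8%), with a median of 0.22. Among the 40 members with 200 or more counts in each assay 10 were higher (27.9% of all) and 9 lower (27.6%), and the median was 0.036. Sar1a (1.66), Arf5 (1.62), Ap1s1 (1.48) and Sar1b (1.47) stood highest; with the mRNA counts of the poly(A) table Sar1a stood at 0.60. Copa (−2.50), Copb2 (−2.16) and Ap3b1 (−1.89) stood lowest. Copa had 75.8 footprint CPM on 540 mRNA CPM in siLuc cells, whereas the beta subunit Copb1 of the same complex had 112 CPM on 170 CPM. All 8 GTPases lay above the median transcript, but with the poly(A) table's counts Arf2 (−0.07), Arf3 (−1.11) and Arf4 (−0.08) lay below it. These mRNA counts cover unlike regions: whole exons in the poly(A) table, close to coding regions in the footprint table. The coding share of poly(A) counts was 36.0% for Arf2, 19.0% for Arf3, 52.7% for Arf4 and 34.1% for Sar1a. Its part in these values was not tested. All 3 measured AP-4 genes lay below the median transcript with either count. Across 45 members coding length and siLuc density had a Spearman correlation of −0.51, against −0.53 over all transcripts.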

How the data were processed

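Values analysed were whole-read counts per RefSeq transcript in 3 tables deposited by the authors, and RPKM computed by the authors for the poly(A) libraries. The submitters' processing notes name GSNAP, bedtools and genome build mm9, without roles or versions; the counting rule is not given in the sources used here, and a change in it could move any ratio. Members were found by symbol, and all 53 matched the RefSeq gene table. The members and the 4 gene lists were chosen with earlier results of these data known. Of the deposited per-sample columns, 18 were not used.

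CLIP exon counts (3 libraries) were compared with untreated poly(A) counts (1 library) in edgeR 4.0.16 (R 4.3.3), with TMM factors, filterByExpr and the quasi-likelihood test, at an adjusted p of 0.05 over 7820 transcripts. Log2 values per antibody used a pseudocount of 0.5 counts. CPM values of the CLIP comparison, those of untreated RNA included, used TMM factors, and CPM values elsewhere used library totals alone. DESeq2 1.42.0 was an alternative. For 1 library per siRNA condition, log2 ratios of CPM are given for transcripts with 200 or more counts in both libraries together, with 95% intervals for counting error only, by a normal approximation on the log scale. Ribosome density used the footprint table's own poly(A) counts, for transcripts with at least 50 footprint and 50 poly(A) counts, and was set relative to the median transcript. Those poly(A) counts were close to the coding-region share of the CLIP table (median ratio 1.07). For 5 members, Ap2m1, Ap3m1, Ap3s1, Arcn1 and Arf1, another table's poly(A) tally was over 1.2 times that of the poly(A) table. Lower tallies were not marked. For Ap3s2 and Arf3 the footprint table's siLuc tally was 0.26 and 0.30 times that of the poly(A) table. Named members follow a rule: in each class the highest and lowest CLIP value among those with 200 or more untreated counts, the 3 largest changes each way in each siRNA comparison, paralogs side by side, and the rest by range.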

Additional observations from a re-analysis of the deposited data

How the results depend on the processing

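The limits are 1 untreated library, 1 library per siRNA condition, antibodies that may share a culture, and poly(A) tallies that differ between tables. No paired analysis was possible because only the CLIP group has replicates and its numbers are shared with no other group's replicates. With total-count scaling, 3 members were CLIP-enriched and the median was −0.92; Sec24a stood at −0.15, Copb1 at −0.14, Copb2 at −0.19, Arf4 at −0.22, Ap1g1 at −0.34, Ap1s1 at −0.33 and Ap3m1 at −0.12, all of opposite sign. Among transcripts with 200 or more untreated counts the median was −0.45 and Ap4e1 stood at 0.10; with DESeq2 Ap4e1 stood at 0.0074. Against the CLIP table's poly(A) counts Ap4e1 stood at 0.10 and Ap3m1 at −0.11. With coding counts in CLIP against untreated exon counts, 8 members were enriched, and the sign changed for Clta (−0.058), Sec24a (−0.57), Arf4 (−0.33), Ap4e1 (0.22), Ap3m1 (−0.45), Copg2 (0.56), Cltc (0.28), Ap2s1 (0.10), Cltb (0.0073) and Ap3b1 (0.12). With 1 antibody left out, Ap3m1 ranged from −0.054 (without 35L33G) to 0.63 and Ap4e1 from −0.066 to 0.062 (without 2J3). Without the polyclonal serum Ap1g1 stood at −0.041 and Ap1s1 at −0.030. The median coding share was 77.8% with 100 or more counts and 76.2% to 77.5% with 1 antibody left out. The footprint median was −0.10 with TMM, with 1 member higher (21.1% of all transcripts). In mRNA over siLuc, 4 of 46 members were lower with the footprint table's poly(A) counts (4.92% of all transcripts). Without a filter 1 of 53 was lower (13.1% of all). Over untreated cells, siLin28a cells had 0 of 47 higher (7.43% of all) and 1 lower (5.07%). In siLuc over untreated cells without a filter, 3 of 53 were higher (11.8% of all) and 3 lower (17.6%). The number of members with higher density was 2 with the poly(A) table (19.1% of all transcripts) and 2 by total counts (11.1%). With 200 counts in each assay the siLuc density median was 0.036 and 10 members were higher (27.9% of all). These counts under alternatives were added after seeing the data. The 5 members with a higher tally in another table were left out in an alternative chosen after seeing the data. It gave 4 enriched and 23 depleted in CLIP, beside 34.6% and 33.3% of all transcripts in the main fit. In density it gave 3 higher and 12 lower, beside 18.6% and 17.0% of all, with a members' median of −0.19. The cause of these movements was not tested.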
